A study of Pan troglodytes with 38 samples.

Results

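NPPA-high and NPPA-low hearts are 2 groups of chimpanzee hearts chosen by their level of NPPA messenger RNA. The groups are the 12 hearts with the highest and the 12 hearts with the lowest NPPA level among 37 ranked hearts, out of 38 in the series. The level is in CPM, the usual unit of counts scaled to the size of the library, taken here without the 13 mitochondrial genes. Heart 549 was left out of the ranking because of its atrial profile, and 13 hearts lay between the groups. NPPA made the groups, so its own values are a description and carry no test. All other genes were compared between the groups with the year of RNA extraction in the model.

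NPPA and NPPB encode the precursors of the atrial and brain natriuretic peptides, hormones that heart muscle cells secrete when they are stretched and that make the kidney excrete salt and water and relax blood vessels. In the adult heart NPPA is made mostly in the atria, while the ventricles make it before birth and again under pressure load or in heart failure, together with NPPB and skeletal muscle actin. CORIN cleaves the NPPA precursor, FURIN the NPPB precursor, NPR1 is the receptor that makes cyclic GMP, and NPR3 takes the peptides up and clears them.

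Polyadenylated RNA from post-mortem hearts of captive-born chimpanzees was sequenced with 1 library per animal, and the labels name neither the chamber nor a treatment. The count table held 31373 genes, of which 18040 had a symbol, and total counts per heart were between 43892814 and 132478050 with a median of 63639041.5. Extraction year, RNA integrity number (RIN), age, sex, primate centre and virus notes were taken from the study's sample table, not from the labels. By that table the RNA of a given year also shares its library history, so year and new against earlier published libraries cannot be told apart, and some animals were first-degree relatives. The NPPA-high group held 6 females and 6 males with a median age of 33.5 years, lowest 10 and highest 53. In the NPPA-low group there were 8 females and 4 males, and the 9 animals with a recorded age had a median of 35 years, lowest 17 and highest 57.

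NPPA lay at a lowest level of 246 CPM, a median of 1290.2 CPM and a highest level of 12685 CPM in the high group. The low group had a lowest level of 1.36 CPM, a median of 5.77 CPM and a highest level of 8.18 CPM. The hearts between ran from 8.40 to 242 CPM with a median of 48.0 CPM. The ranking was continuous at both borders. At the upper border 4X0212 was inside with 246 CPM and 4x0025 outside with 242 CPM, a ratio of 1.02. At the lower border 338 was inside with 8.18 CPM and 4X0339 outside with 8.40 CPM. These levels rested on 11781 to 653769 NPPA counts in the high group and on 55 to 617 in the low group. Ranked instead on counts over exons orthologous between human and chimpanzee, 24 of the 24 hearts kept their group.

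**Figure D1:**
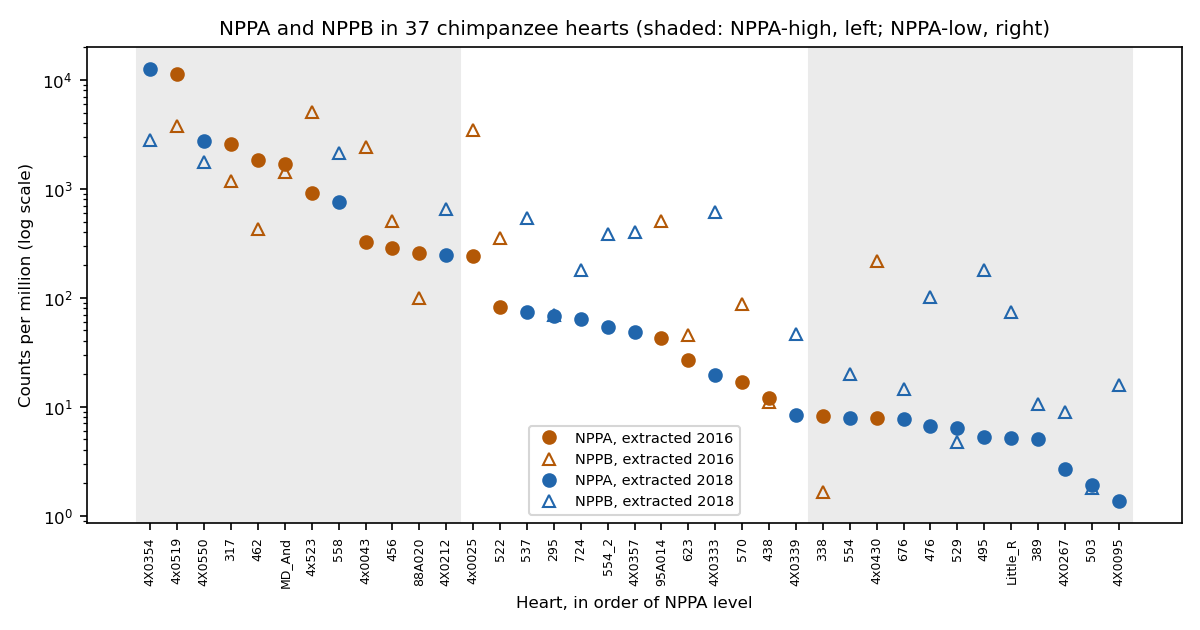
NPPA and NPPB levels (CPM, logarithmic axes) of the 37 ranked hearts in the order of their NPPA level, coloured by extraction year, with the 12 NPPA-high and 12 NPPA-low hearts shaded. NPPA chose the order and runs from 1.36 to 12685 CPM, and NPPB lies between 98.6 and 5116 CPM in the high group and between 1.64 and 218 CPM in the low group.

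Extraction year was unevenly spread. In the high group 8 hearts were extracted in the earlier year and 4 in the later year, 2018, against 2 and 10 in the low group (Fisher's exact test, 2-sided, p = 0.0361, adjusted p = 0.209 over 10 properties). Over all ranked hearts the median NPPA level was 250.0 CPM in the 16 hearts of the earlier year and 8.40 CPM in the 21 hearts of 2018. The years overlapped widely, since the earlier year ran from 7.82 to 11386 CPM and 2018 from 1.36 to 12685 CPM. In the earlier year 2 hearts, 338 and 4x0430, were NPPA-low, so values from that year alone rest on 8 hearts against those. That year had several extraction days, and 317 was the only high heart extracted on the day of a low heart, 338. Group and extraction day can therefore hardly be told apart in the earlier year, while all hearts of 2018 were extracted on the same day.

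Of the 10 properties compared, 0 differed at an adjusted p under 0.05. The number of genes detected with at least 1 count came nearest among the measured ones, with a mean of 19028 in the high and 19652 in the low group (permutation test, 2-sided, p = 0.0419, adjusted p = 0.209), and p was 0.252 when hearts were exchanged only within a year. RIN had a median of 6.05 in the high group, from 3.3 to 8.4, and of 6.0 in the low group, from 3.2 to 8.2 (permutation p = 0.734). Both groups thus covered nearly the whole range of RNA quality. The mitochondrial share of counts had a median of 29.1% in the high group, from 17.2% to 53.9%, and of 31.5% in the low group, from 21.6% to 52.7% (permutation p = 0.388). Total counts (permutation p = 0.387), counts without mitochondrial genes (p = 0.712) and age (p = 0.481) did not differ at the threshold either. Fisher's exact test gave p = 0.680 for sex, p = 0.220 for the primate centre, with 4 high and 8 low hearts from Yerkes, and p = 1 for virus notes, with 3 high and 2 low hearts. The notes name HBV or HCV, and these hearts were all from 2018 and from the centre SNPRC. Within 2018 the notes were thus uneven, on 3 of 4 high hearts and 2 of 10 low hearts. The fits did not take virus notes or centre into account.

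Heart 549 stood far from the others in genes of the atrium. It had 17777 CPM of NPPA, 10781 CPM of the atrial myosin light chain MYL7 and 5007 CPM of the atrial growth factor BMP10. The highest of the other 37 hearts had 771 CPM of MYL7 and 1.16 CPM of BMP10. In contrast the ventricular light chain MYL2 was lower in 549 than in any of the others, whose lowest level was 573 CPM. Among the compared hearts, chamber markers were checked in both groups. Of 16 atrial identity genes 12 had enough counts to be tested, 0 passed the test, 4 had a positive and 8 a negative difference, and the median difference was -0.30 on the log2 scale of high over low. The median was -0.17 without 558, -0.48 in 2018 alone and -0.01 in the earlier year alone. BMP10, KCNJ3 and HAMP were among those below the filter on low counts, with medians of at most 0.221 CPM for these in either group. MYL7 had a lowest, median and highest level of 43.1, 131 and 271 CPM in the high group, against 6.13, 106 and 729 CPM in the low group. The summed atrial level was almost equal, with medians of 1405 CPM (high) and 1437 CPM (low), and PAM, an enzyme that amidates peptides, had the highest CPM on the list.

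Ventricular genes were checked in the same way. Of 8 ventricular identity genes 0 passed the test, 2 had a positive and 6 a negative difference, and their median was -0.29. The median was -0.11 without 4X0354, -0.49 in 2018 alone and 0.03 in the earlier year alone. MYL2 was between 5082 and 18401 CPM in the high group with a median of 13876 CPM, and between 573 and 18588 CPM in the low group with a median of 6890.1 CPM. MYH7, the slow myosin heavy chain, had medians of 28954 CPM and 31033 CPM, but reads of MYH7 and MYH6 are hard to assign because the genes are nearly identical in places. The transcription factors HAND1 (-0.88 ± 0.35, adjusted p = 0.415) and HEY2 (-0.68 ± 0.30, adjusted p = 0.483) did not pass. Here and below, differences are log2 values of NPPA-high over NPPA-low from edgeR, and p-values are adjusted over all genes tested. The value after ± is an approximate standard error (SE), the size of the difference divided by the square root of the F statistic of its test. In whole tissue, fewer cells of a kind and less RNA per cell cannot be told apart.

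Some libraries stood apart from the rest in other genes. Little_R, an NPPA-low heart, had a summed level of 13261 CPM over 19 sarcomere genes and 142989 CPM over 12 heat shock and chaperone genes. Heart 495 (low) had 40863 CPM of the sarcomere genes, and heart 537, between the groups, 31806 CPM. The medians of the sarcomere sum were 127667 CPM in the high and 125962 CPM in the low group. Heart 529 (low) had the highest sums of red blood cell genes (8183 CPM), immediate early genes (5011 CPM) and cytokine and NF-kB response genes (2557 CPM). Heart 462 (high) had the highest interferon response sum, 3736 CPM. The mitochondrial share was over 40% in 2 high hearts (4X0354 and 558) and 3 low hearts (Little_R, 495 and 529).

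Of 15182 genes tested beside NPPA, 20 (0.132%) differed at an adjusted p under 0.05, and 1425 had an unadjusted p under 0.05. In the NPPA-high hearts 14 genes (0.0922%) were higher and 6 (0.0395%) lower. The number depended on single hearts. It was 3 without 4X0354, 9 without 338, 12 without 4X0550, 39 without Little_R, and between 14 and 27 when any other single heart was left out. CHDH, LAMC3 and ST3GAL4 passed in 24 of 24 such fits, while NRG1 and STMN1 passed in 9 of 24. Within extraction years all 20 genes kept their direction, with differences of at least 0.85 in size among the 14 hearts of 2018 and at least 0.78 among the 10 hearts of the earlier year. These are the same hearts in which the genes were called, so the shared direction is no independent check. By edgeR, 1 gene passed as higher (0.00659%) and 0 as lower (0%) in 2018 alone, where 1026 had an unadjusted p under 0.05. In the earlier year alone edgeR called 0 genes, with 849 at an unadjusted p under 0.05. A test of whether the difference itself varied with year called 0 genes, with 413 at an unadjusted p under 0.05 and a smallest adjusted p of 0.144.

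**Figure D2:**
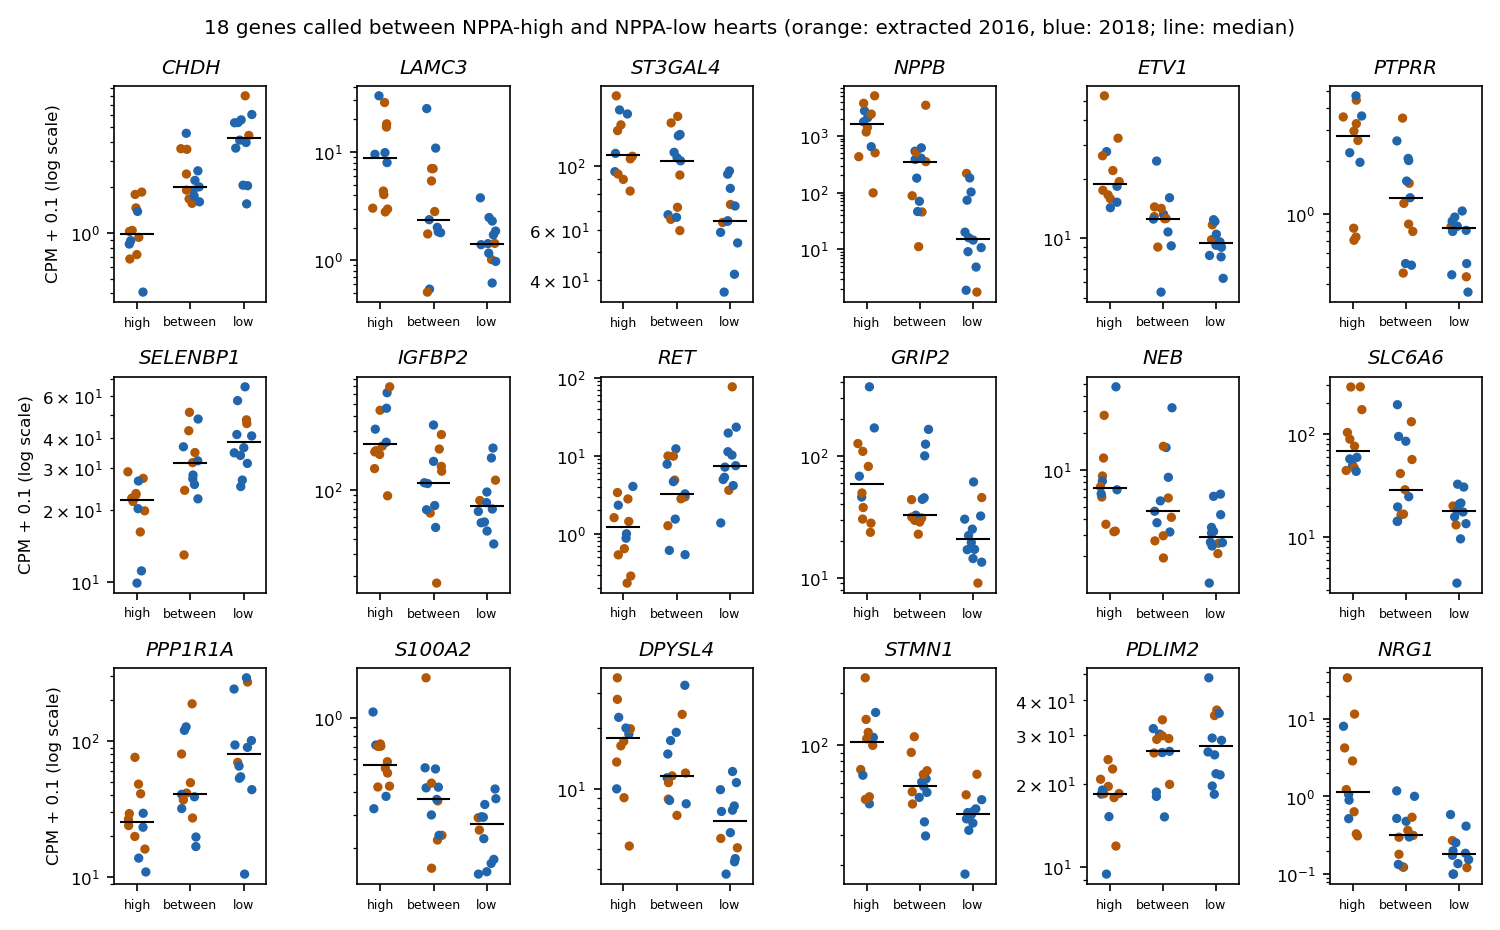
Levels (CPM plus 0.1, logarithmic axis) of 18 of the 20 genes that passed the test, with 1 point per heart for the NPPA-high, between and NPPA-low hearts. The high and low hearts do not overlap for ETV1 and SLC6A6, and overlap in at least 1 heart for each of the others drawn.

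NPPB, which encodes the precursor of brain natriuretic peptide, lies beside NPPA on chromosome 1 of the genome build Pan_tro_3.0, at 11332353 to 11333819, and NPPA is at 11320591 to 11323180, both on the minus strand and 9173 bases apart. NPPB was at 98.6, 1595 and 5116 CPM (lowest, median, highest) in the high group and at 1.64, 15.1 and 218 CPM in the low group. In 11 of the 12 high hearts it was above every low heart, and 88A020 was the exception, below the low hearts 4x0430, 495 and 476. The difference was 4.94 ± 0.85 on the log2 scale, 30.7-fold (adjusted p = 0.0160). Without 4X0354 the adjusted p was 0.0621, and in each of the other 23 fits that left out a heart NPPB passed. Within 2018 the log2 difference was 5.40 (adjusted p = 0.0912) and within the earlier year it was 4.14 (adjusted p = 0.891). CLCN6, which encodes a chloride and proton exchanger, ends 2623 bases before NPPA on the plus strand, and 6 high hearts were above and 6 below its median in the low group (0.10 ± 0.17, adjusted p = 0.896).

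The natriuretic peptide list held 12 genes besides NPPA, of which 11 were tested and OSTN was below the filter. NPPB was the 1 that passed, 5 differences were positive and 6 negative, and the median was -0.03, with 0.18 without 4x0430. The clearance receptor NPR3 had medians of 2.33 CPM in the high and 0.388 CPM in the low group, with ranges of 0.418 to 12.4 and 0.172 to 1.32 CPM that overlapped. Its difference of 2.28 ± 0.55 missed the threshold (adjusted p = 0.128). CORIN, the protease for the NPPA precursor, had medians of 32.1 and 77.8 CPM (-1.25 ± 0.65, adjusted p = 0.564). FURIN, the protease for the NPPB precursor, had medians of 125 and 152 CPM (-0.50 ± 0.21, adjusted p = 0.459). For the guanylyl cyclase receptor NPR1 the difference was 0.01 ± 0.32 (adjusted p = 0.996).

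Among secreted signals and receptors, NRG1 rose in the NPPA-high hearts. It encodes neuregulin, a ligand of ERBB receptors that is made in the heart's endothelium. NRG1 was at 0.211, 1.04 and 33.7 CPM in the high group and at 0, 0.0800 and 0.485 CPM in the low group, where 2 hearts had no count. The highest value belonged to 4x0519, and 9 high hearts were above every low heart. The difference was 4.93 ± 1.01 (adjusted p = 0.0418). RET, a receptor for ligands of the GDNF family, was lower, with 0.134, 1.12 and 3.95 CPM in the high group against 1.28, 7.22 and 76.3 CPM in the low group. All 12 high hearts were below the low median, and the low heart 4x0430 had the highest value. Its difference was -3.33 ± 0.61 (adjusted p = 0.0199), and it did not pass without 4X0354 or without 4x0430, with an adjusted p of up to 0.268. Without 4x0430 the difference was -2.06.

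IGFBP2, which binds insulin-like growth factors outside cells, was at 89.2, 235 and 687 CPM in the high group and at 36.2, 74.1 and 218 CPM in the low group. Of the high hearts 7 were above every low heart, with 4x0519 the highest and 495 the highest low heart. The difference was 1.94 ± 0.35 (adjusted p = 0.0167), and it did not pass without 4X0354 or without 338, at up to 0.101. PTPRR encodes a phosphatase that acts on MAP kinases. It differed by 2.17 ± 0.38 (adjusted p = 0.0160) at low levels, with medians of 2.68 and 0.725 CPM. In 9 high hearts it was above every low heart and in 2 below the low median, and without 4X0354 the adjusted p was 0.0800. PPP1R1A, an inhibitor of protein phosphatase 1, fell, with 10.8, 25.3 and 76.1 CPM in the high and 10.5, 80.1 and 293 CPM in the low group (-2.28 ± 0.45, adjusted p = 0.0352). None of the high hearts reached the low median, but the low hearts 529, 503, 554, 476 and 4x0430 lay inside the high range and Little_R below it. PPP1R1A did not pass when 4X0354, 4X0550, 317, 4x523, 558 or 338 was left out, at an adjusted p of up to 0.240.

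In the extracellular matrix, LAMC3, a gamma chain of laminin, was among the steadiest differences. It was at 2.70, 8.66 and 32.96 CPM in the high group and at 0.517, 1.33 and 3.68 CPM in the low group. All 12 high hearts were above the low median, 9 of them above every low heart. The difference was 3.18 ± 0.46, 9.04-fold (adjusted p = 0.00273), and LAMC3 was the 1 gene that also passed in 2018 alone (3.13, adjusted p = 0.0349). ST3GAL4 adds sialic acid to the sugars of glycoproteins. Its levels were 81.9, 109.7 and 177 CPM in the high group and 36.2, 64.3 and 96.3 CPM in the low group, with 8 high hearts above every low heart. The difference was 0.95 ± 0.16 (adjusted p = 0.0160), and the largest adjusted p on leaving out a heart was 0.0483.

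Several genes of metabolism and transport differed. CHDH, choline dehydrogenase of the mitochondrion, had the smallest p of all genes. It was at 0.308, 0.880 and 1.76 CPM in the high group and at 1.46, 4.14 and 7.91 CPM in the low group. Among the low hearts 11 were above every high heart, the exception being Little_R. The difference was -2.30 ± 0.31 (adjusted p = 0.00161), and the largest adjusted p on leaving out a heart was 0.0244. SLC6A6 carries taurine into cells. It was at 43.3, 67.7 and 289 CPM in the high group and at 3.44, 17.6 and 32.4 CPM in the low group, so that no high heart overlapped a low one. The difference was 2.11 ± 0.41 (adjusted p = 0.0292), and it did not pass without 4X0354, 4X0550, 338 or 4x0430, at up to 0.112. Groups without overlap occurred for 2 of the 15182 genes (0.0132%), SLC6A6 and ETV1.

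SELENBP1, which binds selenium and oxidises methanethiol, was at 9.81, 21.9 and 28.7 CPM in the high and 24.9, 38.4 and 65.1 CPM in the low group. Of the low hearts 10 were above every high heart. The difference was -1.10 ± 0.20 (adjusted p = 0.0160), lost without 4X0354 or without 4X0550 at an adjusted p of up to 0.0800.

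NEB encodes nebulin, a ruler of thin filaments that is abundant in skeletal muscle and scarce in the heart. It was at 3.07, 7.02 and 47.0 CPM in the high group and at 1.11, 2.74 and 6.28 CPM in the low group. The highest value was in 4X0354, and 8 high hearts were above every low heart. The difference was 2.25 ± 0.43 (adjusted p = 0.0255), and it did not pass without 4X0354 or without 338, at up to 0.370. Without 4X0354 it was 1.49. STMN1, which takes microtubules apart, had medians of 104 and 39.7 CPM with 8 high hearts above every low heart (1.24 ± 0.25, adjusted p = 0.0418). DPYSL4, of a family that binds tubulin, had medians of 17.9 and 6.78 CPM with 9 high hearts above every low heart (1.52 ± 0.30, adjusted p = 0.0352). PDLIM2, a PDZ and LIM domain protein of actin fibres, was lower, with medians of 18.3 and 27.3 CPM (-0.80 ± 0.16, adjusted p = 0.0418). These 3 were the calls nearest the threshold together with NRG1. On leaving out a heart STMN1 passed in 9, PDLIM2 in 11 and DPYSL4 in 12 of 24 fits, with adjusted p of up to 0.248, 0.113 and 0.120. STMN1 passed only without 4x523, 558, 4x0043, 456, 88A020, 4X0212, 4x0430, 476 or Little_R. PDLIM2 passed only without MD_And, 4x0043, 456, 88A020, 676, 476, 495, Little_R, 389, 4X0267 or 503. DPYSL4 was lost without 4X0354, 317, 558, 456, 4X0212, 338, 554, 4x0430, 389, 4X0267, 503 or 4X0095. NRG1 passed only without 4x0519, MD_And, 558, 4x0043, 456, 88A020, 4X0212, 529 or Little_R, with an adjusted p of up to 0.405 otherwise.

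Further calls were a transcription factor, a scaffold and a calcium-binding protein. ETV1 is an ETS factor needed for fast conduction in the atria and Purkinje fibres. It was at 14.2, 18.8 and 53.1 CPM in the high group and at 6.17, 9.33 and 12.4 CPM in the low group, without overlap. The difference was 1.12 ± 0.20 (adjusted p = 0.0160), and it did not pass without 4X0354 or without 338, at up to 0.101. Of 12 genes on the list of conduction and pacemaker cells 10 were tested, ETV1 alone passed, 6 differences were positive and 4 negative, and the median was 0.05, with -0.07 without 4x0430. CACNA1G, a T-type calcium channel, had medians of 2.92 and 12.3 CPM (-1.78 ± 0.57, adjusted p = 0.259), and ISL1 was below the filter. GRIP2, a scaffold with PDZ domains, was at 23.5, 58.7 and 368 CPM in the high group and at 8.93, 20.7 and 60.9 CPM in the low group. The highest value was again in 4X0354, and 6 high hearts were above every low heart. Its difference of 2.12 ± 0.40 (adjusted p = 0.0247) did not pass without 4X0354 or without 338, at up to 0.191, and was 1.17 without the hearts over 40% mitochondrial counts. S100A2, a calcium-binding protein, had medians of only 0.460 and 0.170 CPM, with 10 high hearts above every low heart (1.75 ± 0.35, adjusted p = 0.0352). It was lost without 4X0354, 4X0550, 4x523, 338, 4x0430, 4X0267 or 4X0095, at an adjusted p of up to 0.231.

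The libraries carried no mark of the strand, so overlapping genes share reads that cannot be told apart. In RefSeq the span of CHDH overlaps IL17RB (-0.01 ± 0.19), that of NEB overlaps RIF1 (0.04 ± 0.23) and that of ST3GAL4 overlaps KIRREL3 (0.09 ± 0.36). These neighbours were chosen by position, and none of them passed the test. GRIP2, NRG1 and NEB also overlap coding genes known by locus number alone, for which no value could be given, and transcripts that code for no protein overlap some of the calls. NPPA and NPPB overlap no other gene there.

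A wider list of 14 stress and fetal genes, which holds NPPB, had 11 positive and 3 negative differences with a median of 0.72, against 7319 positive and 7863 negative differences and a median of -0.01 over all genes tested. NPPB was the 1 that passed. The median of the list was 0.42 in 2018 alone, 1.06 in the earlier year alone, 0.46 without 4X0550 and 1.03 without the hearts over 40% mitochondrial counts. On orthologous exons, where only part of the genes could be matched to a symbol, it was -0.12. ACTA1, skeletal muscle actin, was at 1532, 2857 and 5934 CPM in the high group and at 11.9, 227 and 5041 CPM in the low group. All 12 high hearts were above the low median and 10 low hearts were below every high heart, but 4x0430 and 476 lay inside the high range. The fitted difference of 1.73 ± 0.83 missed the threshold (adjusted p = 0.525). XIRP2, an actin-binding protein of the intercalated disc, had medians of 595 and 184 CPM (1.73 ± 0.50, adjusted p = 0.205). CSRP3, the muscle LIM protein, had medians of 2012 and 1185 CPM (0.70 ± 0.35, adjusted p = 0.540).

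**Figure D3:**
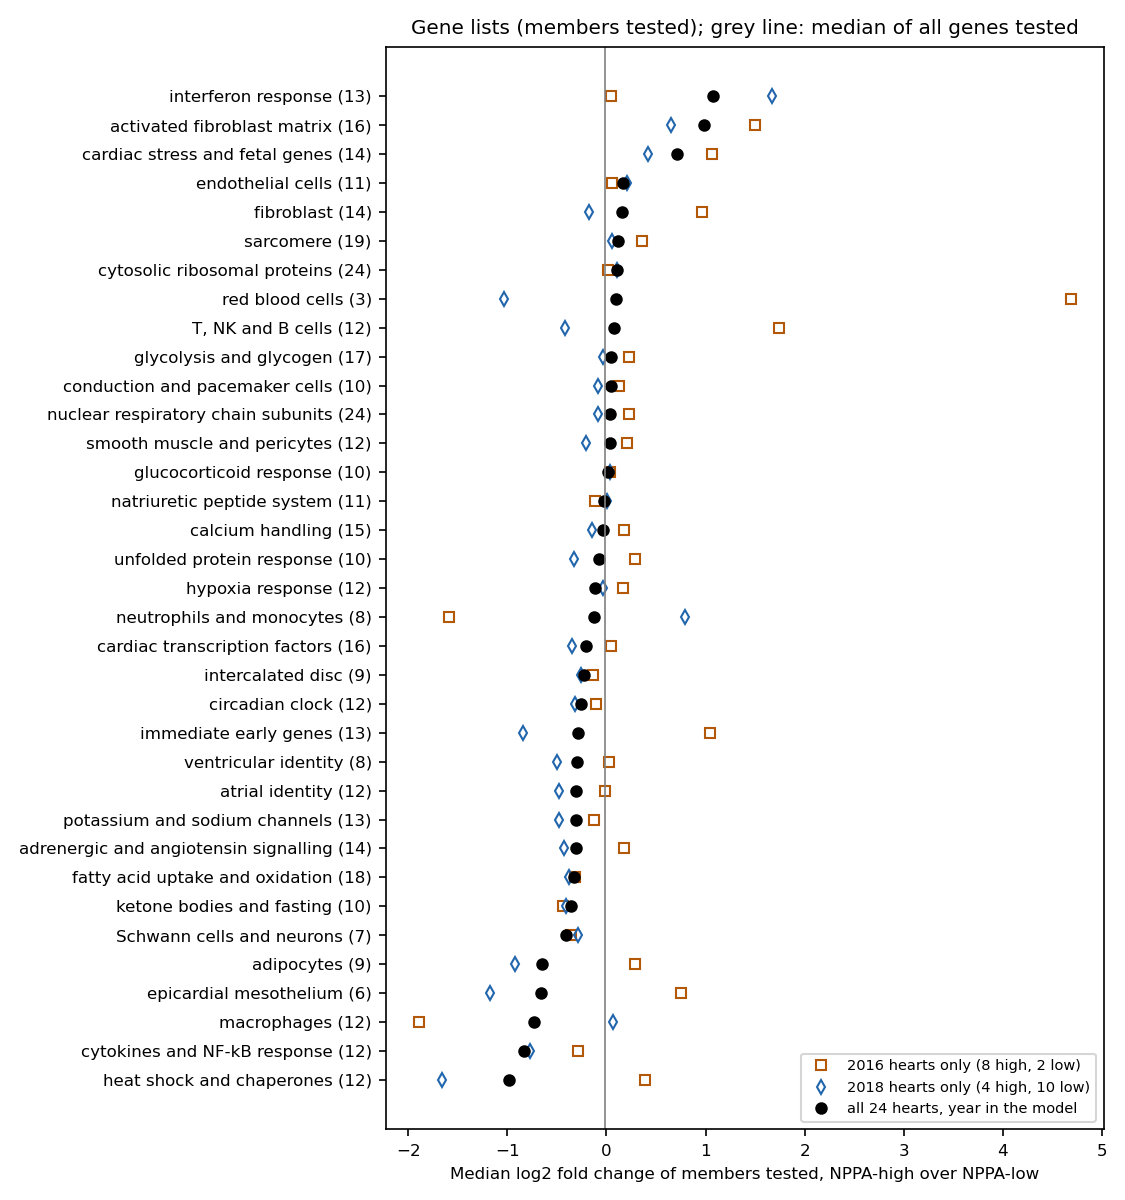
Median difference (log2 of NPPA-high over NPPA-low) of the tested genes of 35 lists, for all 24 hearts and for the hearts of 2018 and of the earlier year alone. The medians run from -0.99 for heat shock and chaperones to 1.08 for the interferon response with all 24 hearts, beside -0.01 over all genes tested.

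In the contractile apparatus, of 19 sarcomere genes 0 passed, 13 differences were positive and 6 negative, and the median was 0.12, with 0.03 without 4X0550 and 0.23 without 558. The inhibitory troponin TNNI3 had the smallest p among them, with medians of 5030.1 and 3070.3 CPM (1.25 ± 0.32, adjusted p = 0.143). MYH6, the fast myosin heavy chain, ranged from 68.6 to 20017 CPM in the high group and from 126 to 12430.5 CPM in the low group (-2.64 ± 1.47, adjusted p = 0.605). Of 15 calcium handling genes 0 passed and the median was -0.03. The median became 0.22 without 4X0354 and -0.22 without 4X0212, and was -0.15 in 2018 alone and 0.17 in the earlier year alone. TRDN, which anchors the calcium store's release complex, had medians of 309 and 189 CPM (0.86 ± 0.26, adjusted p = 0.227). Potassium and sodium channels gave 3 positive and 10 negative differences among 13 tested, with a median of -0.30 that was -0.08 without 4X0354 and -0.50 without 4X0212. KCNK3, a background potassium channel, had medians of 1.01 and 3.10 CPM (-2.28 ± 0.62, adjusted p = 0.158). Of 9 intercalated disc genes 2 were positive and 7 negative, with a median of -0.23 that was -0.03 without 4X0354, -0.52 without 4X0550 and 0.13 without year in the model. The table lacked GJA1 of this list and KCNH2 of the channels. Among 16 cardiac transcription factors 5 were positive and 11 negative with a median of -0.21, which was -0.09 without 4X0354 and -0.32 without 4X0550, and -0.34 in 2018 alone and 0.05 in the earlier year alone. NKX2-5 had medians of 271 and 343 CPM (-0.59 ± 0.23, adjusted p = 0.397). Adrenergic and angiotensin genes gave 4 positive and 10 negative differences with a median of -0.31, which was -0.19 without 4X0354, -0.42 in 2018 alone and 0.17 in the earlier year alone. The receptors ADRB1 (-0.91 ± 0.46, adjusted p = 0.549) and AGTR1 (-0.87 ± 0.36, adjusted p = 0.436) did not pass, and renin was below the filter.

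Matrix genes of activated fibroblasts were positive in 16 of 16, with a median of 0.99, although 0 passed. Their summed level was 595, 1682 and 3703 CPM in the high group and 381, 597 and 2198 CPM in the low group, and fibronectin (FN1) had the highest CPM. The groups overlapped, since the low hearts 338, 4X0267, 4x0430, 495, 529 and Little_R were above the lowest high heart, with 529 and Little_R also above the high median. The median difference was 0.65 in 2018 alone, 1.498 in the earlier year alone and 1.48 without the hearts over 40% mitochondrial counts. Leaving out single hearts gave 0.78 without 338 to 1.30 without Little_R. FN1 had medians of 563 and 194 CPM (1.24 ± 0.52, adjusted p = 0.454), and LTBP2, a matrix protein of microfibrils, 125 and 29.5 CPM (1.45 ± 0.69, adjusted p = 0.525). The 14 genes that mark fibroblasts in general had 8 positive and 6 negative differences with a median of 0.16, which was 0.65 without 529 and 0.02 without 558, and -0.17 in 2018 alone and 0.96 in the earlier year alone. Whether the share of fibroblasts had a part in the matrix values was not tested.

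Other cell types were compared by their marker lists. Endothelial genes were positive in 10 of 11 with a small median of 0.17, which was 0.0037 without 4X0354, 0.295 without Little_R and -0.02 without year in the model. Smooth muscle and pericyte genes had 6 of each sign and a median of 0.03, with -0.11 without 4X0354 and 0.10 without 4X0550. Macrophage genes were negative in 12 of 12 with a median of -0.73, which was -1.89 in the earlier year alone and 0.06 in 2018 alone. The summed macrophage level went the other way, with medians of 159 CPM (high) and 128 CPM (low), and the low heart 4x0430 had the highest sum, 1075 CPM. Without 4x0430 the median difference was -0.41, and without 338 it was -0.53. Neutrophil and monocyte genes had a median of -0.13 (3 positive, 5 negative), which was 0.34 without 529, 0.34 without 338 and -1.12 without 4X0212, and 0.79 in 2018 alone and -1.59 in the earlier year alone. T, NK and B cell genes had a median of 0.07 (7 positive, 5 negative), which was 1.001 without 529 and -0.30 without 338, and -0.42 in 2018 alone and 1.74 in the earlier year alone. Red blood cell genes, 3 tested, had a median of 0.10, which was 1.70 without 529 and -0.54 without 4x0430, and -1.03 in 2018 alone and 4.69 in the earlier year alone. HBB had the highest CPM of these. Epicardial genes had a median of -0.66 (1 positive, 5 negative of 6 tested), which was -0.07 without Little_R and 0.75 in the earlier year alone. Adipocyte genes had a median of -0.65 (1 positive, 8 negative), with -0.38 without 4X0267 and 0.29 in the earlier year alone. Schwann cell and neuron genes had a median of -0.41 (2 positive, 5 negative), with -0.21 without 529 and -0.63 without 558. The part of cell make-up in the 20 calls was not tested.

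Energy metabolism was read through its pathways. Of 18 genes of fatty acid uptake and oxidation 3 differences were positive and 15 negative, with a median of -0.33, and 0 passed. The median was -0.38 in 2018 alone and -0.32 in the earlier year alone, and lay between -0.45 and -0.26 on leaving out single hearts. The summed level was 3656, 6880.4 and 8495 CPM in the high group and 965, 9905 and 12928 CPM in the low group. The low hearts other than Little_R, 529, 495, 503 and 4X0267 were above every high heart. ACADVL, the dehydrogenase of very long chains, had medians of 923 and 1731 CPM (-0.81 ± 0.28, adjusted p = 0.318). HADHA, a subunit of the trifunctional protein, had medians of 727 and 1220.3 CPM (-0.87 ± 0.35, adjusted p = 0.419). CD36, which takes up fatty acids, had medians of 286 and 413 CPM (-0.86 ± 0.35, adjusted p = 0.429). Of 10 ketone body and fasting genes 3 were positive and 7 negative, with a median of -0.36 that was -0.55 without 4X0550 and -0.21 without 4X0354. UCP3, a mitochondrial carrier, had medians of 0.912 and 4.71 CPM (-1.59 ± 0.41, adjusted p = 0.142). Glycolysis and glycogen genes had a median of 0.05 (10 positive, 7 negative) and nuclear respiratory chain subunits 0.04 (14 positive, 10 negative). Both medians changed sign with single hearts, to -0.06 without 4X0212 and to -0.14 without 4X0550.

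Stress and immune response lists were sensitive to single hearts. Interferon response genes were positive in 13 of 13 with a median of 1.08, and 0 passed. The median was 1.67 in 2018 alone, 0.05 in the earlier year alone and 0.69 without 462. In 2018, 3 of 4 high hearts and 2 of 10 low hearts had a virus note, and its part in these values was not tested. Summed levels had medians of 371 CPM (high) and 314 CPM (low), and 462, 4X0354, 558 and 4X0212 were above every low heart while the other high hearts were not. OAS2, which makes the activator of RNase L, had medians of 13.4 and 7.98 CPM (1.52 ± 0.43, adjusted p = 0.184). Heat shock and chaperone genes were negative in 11 of 12 with a median of -0.99, which was 0.06 without Little_R and 0.39 in the earlier year alone. Cytokine and NF-kB genes were negative in 12 of 12 with a median of -0.83, which was -0.26 without 529, -0.28 in the earlier year alone and 0.05 without the hearts over 40% mitochondrial counts. Immediate early genes had a median of -0.29 (3 positive, 10 negative), which was 0.11 without 529 and -0.71 without 558, and 1.04 in the earlier year alone. The 12 hypoxia genes had a median of -0.11 (5 positive, 7 negative), which was 0.14 without Little_R, and among them the histone demethylase KDM3A had medians of 68.7 and 44.5 CPM (0.62 ± 0.14, adjusted p = 0.102). The lists with small medians were glucocorticoid response (0.02, 5 of each sign), unfolded protein response (-0.08, 3 positive and 7 negative) and cytosolic ribosomal proteins (0.11, 18 positive and 6 negative). Without 1 heart they reached -0.08 (4X0550), -0.22 (4x0430) and 0.01 (4X0354) in that order, and the unfolded protein response was 0.01 without Little_R, -0.32 in 2018 alone and 0.29 in the earlier year alone. Circadian clock genes had a median of -0.26 (4 positive, 8 negative), which was -0.16 without 4X0354 and -0.40 without 4X0550, and the hour of death is not given.

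The 13 hearts between the groups had no part in the test, so they gave a look at the 20 genes in other animals. A fit along the NPPA level in these hearts, with edgeR, called 0 of 15182 genes (0%), with 719 at an unadjusted p under 0.05. Of the 14 genes called higher 11 had a positive slope (78.6%), beside 58.1% with a positive slope among the 7319 genes with a positive difference. Of the 6 called lower 4 had a negative slope (66.7%), beside 52.2% among the 7863 genes with a negative difference. NPPB was at 10.9 to 3487 CPM in these hearts with a median of 351 CPM. Its slope was 1.14 ± 0.30 log2 units per log2 unit of NPPA, with an unadjusted p of 0.00209 that did not pass over all genes (adjusted p = 0.935). S100A2 had a slope of 0.69 ± 0.16 and PPP1R1A of -0.52 ± 0.17, with unadjusted p of 0.000671 and 0.00865 that did not pass either. Among the slopes that ran against the direction of the call were those of NEB (-0.23), DPYSL4 (-0.21), GRIP2 (-0.01) and RET (0.03).

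Along the NPPA level of all 37 hearts, which include the 24 of the groups, edgeR called 326 genes (2.15%), 184 with a positive (1.21%) and 142 with a negative slope (0.935%). Of the 20 genes 18 were among them. NPPB had a slope of 0.64 (adjusted p = 0.000102). Further genes of the lists passed there but not between the groups, among them the clearance receptor NPR3 (slope 0.29), XIRP2 (0.22) and UCP3 (-0.20). A slope is per log2 unit of NPPA and is not on the scale of the differences between groups.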

How the data were processed

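Hearts were ranked by NPPA from the deposited table of raw counts per gene, which the authors made with STAR on Pan_tro_3.0; the submitters' processing notes give STAR 2.6.1b. The second deposited table, raw counts over orthologous exons, was used for alternatives. CPM used column totals without mitochondrial genes. Unused were the normalized matrix (38 columns) and 52 columns of no sample in the series, 49 of them human.

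The groups were compared with edgeR 4.0.16 (quasi-likelihood, TMM, filterByExpr, year as covariate) in R 4.3.3, with Benjamini-Hochberg adjustment over all genes except NPPA and a threshold of 0.05. Steps were tested on simulated data. Properties were compared with 100000 permutations or Fisher's exact test.

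Named are up to 15 calls in either direction by p, up to 10 by fold at a mean of at least 5 CPM, and from every list the 4 members of smallest p and the one of highest CPM. NPR1, CLCN6 and neighbours by position, and genes named for being absent or below the filter, are additions, chosen after their values were seen. The hearts and lists were chosen with earlier results of these data known.

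Alternatives were DESeq2 1.42.0, limma 3.58.1, other scaling, filters, group sizes, covariates, tables, years and thresholds, and leaving out hearts. Leaving out hearts over 40% mitochondrial counts and using the extraction day were chosen after seeing the data. Gene spans for overlaps came from RefSeq. Single values of some genes that passed the test or belong to the lists are not reported here. Calls are ordered by role in the text, with no test of the roles.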

Additional observations from a re-analysis of the deposited data

Results flagged for a closer look

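Heart 549, left out of the comparison, had levels of atrial genes far above those of the other 37 hearts, although the labels name no chamber. MYL7 was at 10781 CPM against at most 771 CPM elsewhere, and BMP10 was at 5007 CPM against at most 1.16 CPM. SLN was at 149 CPM against at most 5.03 CPM, and MYBPHL at 308 CPM against at most 3.64 CPM.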

How the results depend on the processing

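The differences of the 20 genes kept their sign in every alternative that gave a value. The genes were called in hearts that these alternatives share, so this was no check in other animals. The medians of 27 of 35 lists changed sign in at least 1 alternative, 14 of them on leaving out 1 heart, and 20 had opposite signs in the 2 years. The count of 20 genes moved to 156 with DESeq2, 44 without a filter, 0 with 8 against 8 hearts (edgeR, 1421 at an unadjusted p under 0.05), 12 with 18 against 18, 326 along NPPA in all 37 hearts, 48 without a covariate and 8 with sex added. It was 1 in 2018 alone, 0 in the earlier year alone (849 at an unadjusted p under 0.05) and 2 at a threshold of 0.01. A setting without 537 and Little_R gave 38, but 537 was in neither group, so this setting removed only Little_R. Chosen after seeing the data, the count was 12 without hearts over 40% mitochondrial counts, of which 5 are among the 20. With the extraction day in place of the year, also chosen after seeing the data, it was 16 with 9 of the 20 among them, 14 higher and 2 lower. In that fit the earlier year compares the groups only through 317 and 338, which share a day. Leaving out 1 heart gave 3 to 39. DESeq2 called all 20 genes and limma-voom 12 of them. On orthologous exons 27 genes passed, but only 1947 tested genes could be paired between the tables, so which calls are shared is known in part. The causes were not tested. No paired analysis was possible because each animal gave 1 library. Groups taken from the ends of a ranking differ in year, and the earlier year holds 2 low hearts. Genes with few counts, such as NRG1 and S100A2, rest on little depth.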
